A study of Mus musculus with 45 samples.

Results

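Mouse hippocampal neurons that were driven to fire action potentials (APs) for 1 h were compared at the end of a second hour, in which they received either TBOA or tetrodotoxin (TTX). All libraries of these 2 conditions were used, 10 of the 45 in the series, with 5 per condition. The cultures were made from newborn (P0) C57BL/6N mice, kept in B27 with 1% rat serum, given AraC on day in vitro 3, and treated on day 10 or 11 by the labels (day 11 by the study's methods for sequencing). Every dish of both groups was first treated with bicuculline (Bic, 50 µM), an antagonist of GABA type A receptors that starts synchronized AP firing, and by the study's methods Bic stayed on during the intervention. In the TTX group, TTX (1 µM), a blocker of voltage-gated sodium channels, was added after 1 h of Bic and left for 1 h. In the TBOA group, TBOA (50 µM), a benzyloxyaspartate that blocks glutamate uptake, took its place for 1 h. Both arms therefore belong to the long protocol (LP) and ended 2 h after the start of Bic. Each of the 5 culture preparations, numbered 1, 3, 6, 7 and 8, gave 1 library to each arm, and the comparison was paired by preparation. The drugs differ in 2 ways at once, since firing was blocked in one arm only and glutamate uptake in the other arm only, and their parts in a difference cannot be told apart from these 10 libraries.

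Synaptic activity reaches the nucleus mainly through calcium entry and the MAP kinase cascade, which act on transcription factors such as CREB and SRF. Immediate early genes answer first, without new protein synthesis, and many of their mRNAs are short-lived, so that their level follows the signal closely. Delayed genes, among them those for synaptic proteins and secreted factors, rise later. Astrocytes and neurons clear glutamate with excitatory amino acid transporters, and when uptake fails glutamate can spill over from the synapse and reach NMDA receptors outside it.

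The 5 TTX libraries held 23895011 to 64680212 reads counted on genes, and the 5 TBOA libraries 11455443, in preparation 6, to 81129276, in preparation 1. Deviations of same-numbered libraries from their group means were correlated in 4 of 5 preparations, with coefficients from 0.27 to 0.73 across 13547 expressed genes, while preparation 6 had −0.18. The summed level of 12 excitatory neuron markers ranged from 4846 to 5418 CPM (counts scaled by library size with TMM factors) with TTX and from 4472 to 5262 with TBOA, and that of 12 inhibitory markers from 1971 to 2914 and from 1950 to 2775. The neuronal label was therefore met by the markers, next to 12 astrocyte markers at 1149 to 1751 and 1383 to 1789 CPM and 10 microglia markers at 10.7 to 15.2 and 11.7 to 15.96 CPM. In RNA from a whole dish, fewer cells of a type and less RNA per cell cannot be told apart.

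Among 15892 genes tested, 556 (3.5%) had higher and 1389 (8.74%) had lower mRNA levels with TBOA than with TTX, 12.2% in all, at an adjusted p-value under 0.05 (edgeR's quasi-likelihood test with preparation as a block and Benjamini-Hochberg adjustment). Without the block, the same test called 238 higher and 1012 lower. Leaving out preparation 7 left 262 and 912 calls, and leaving out preparation 8 left 194 and 804. Most differences were small, and 70.3% of the called genes differed by less than 0.5 on the log2 scale. Larger differences were found on both sides, with 40 genes higher and 93 lower by more than 1. All 5 TBOA libraries lay above all 5 TTX libraries for 307 genes (1.93%) and below them for 1056 genes (6.64%).

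**Figure D1:**
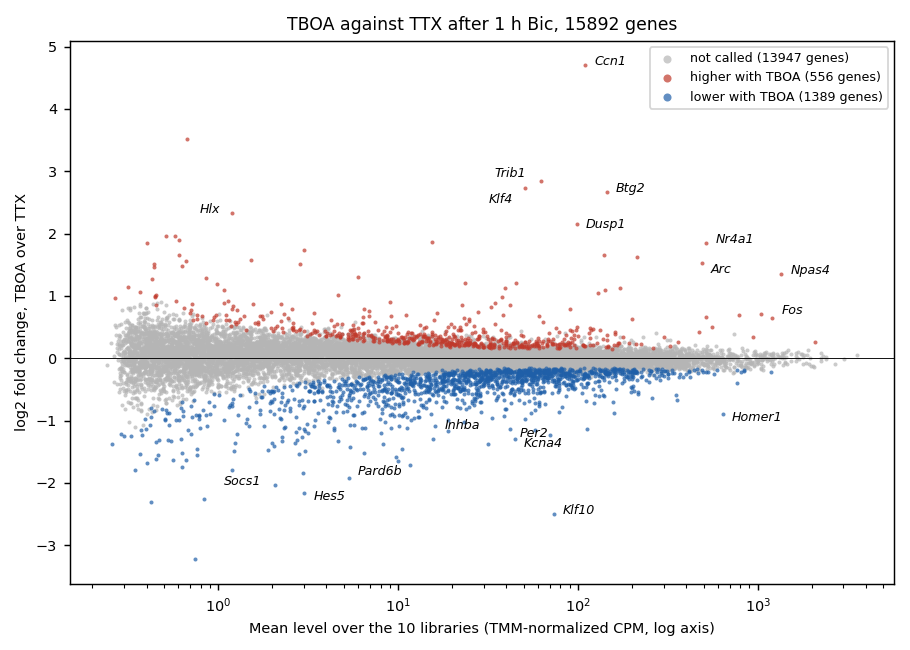
Each point is 1 of 15892 genes, with the mean level over the 10 libraries on a log axis (CPM, normalized by TMM) and the log2 fold change of TBOA over TTX on the vertical axis. Red points (556) were called higher and blue points (1389) lower with TBOA, and Ccn1 at 4.70 and Klf10 at −2.49 lie farthest from 0 among the labelled genes on either side.

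Among the genes named here, the highest TBOA-to-TTX ratios belonged to the early genes Ccn1, Trib1, Klf4 and Btg2. The largest rises also held genes outside the early gene lists. Hlx was 5.05-fold higher at low levels, 1.99 ± 0.57 against 0.39 ± 0.18 CPM (adjusted p = 1.63e-05 by edgeR). Kcnj2 was 3.63-fold and Ptp4a1 2.98-fold higher (adjusted p = 5.42e-07 and 0.000104 by edgeR). Library values are given here in CPM and in the order of preparations 1, 3, 6, 7 and 8. Ccn1 (chromosome 3, 145646976 to 145649981, GRCm38), which encodes a secreted matrix protein and is a classic serum-response gene, had 8.97, 10.4, 8.29, 8.51 and 4.90 CPM with TTX and 272, 244, 202, 214 and 126 CPM with TBOA. The lowest TBOA library lay above the highest TTX library by a wide margin, and preparation 8 was lowest in both arms. The difference was 25.9-fold (log2 fold change 4.70, standard error 0.06, adjusted p = 8.32e-14 by edgeR's quasi-likelihood test). Untreated controls had 7.99 ± 1.74 CPM, close to the TTX mean of 8.22 ± 2.03, and 2 h of Bic gave 211 ± 67.2, close to the TBOA mean of 212 ± 54.9 (SD, n = 5 each).

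Other early genes followed this order with smaller ratios. Btg2 (chromosome 1, 134075170 to 134079120), an antiproliferative early gene, had 40.1, 48.6, 54.2, 28.2 and 31.1 CPM with TTX and 281, 283, 227, 242 and 209 CPM with TBOA. No library of one arm overlapped the other, and the difference was 6.38-fold (log2 fold change 2.67, standard error 0.11, adjusted p = 1.76e-08 by edgeR). Trib1 (chromosome 15, 59648350 to 59657099), a pseudokinase that modulates MAP kinase signaling, had 16.3, 19.1, 17.7, 13.6 and 11.4 CPM with TTX and 103, 130, 107, 118 and 88.7 CPM with TBOA. The 5 TTX values lay around the control mean of 16.7 ± 1.01 CPM, and the difference was 7.19-fold (log2 fold change 2.85, standard error 0.08, adjusted p = 2.96e-10 by edgeR). Klf4, a Krüppel-like transcription factor, was 6.62-fold higher, at 87.3 ± 22.8 against 13.8 ± 4.91 CPM (log2 fold change 2.73, standard error 0.08, adjusted p = 6.49e-10 by edgeR), and its control level was 1.67 ± 0.22 CPM.

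The early genes Nr4a1, Npas4 and Arc were higher with TBOA as well. Nr4a1 (chromosome 15, 101254269 to 101274795), an orphan nuclear receptor, had 220, 263, 343, 193 and 154 CPM with TTX and 780, 840, 767, 886 and 735 CPM with TBOA. Preparation 6 had the highest TTX value and yet stayed far below every TBOA library (log2 fold change 1.84, standard error 0.12, adjusted p = 1.04e-06 by edgeR). Npas4 (chromosome 19, 4984355 to 4990316), a neuron-specific transcription factor, had 918, 816, 868, 780 and 528 CPM with TTX and 1974, 1887, 1801, 2127 and 1872 CPM with TBOA. Its arms did not overlap (log2 fold change 1.35, standard error 0.10, adjusted p = 1.70e-06 by edgeR). Both arms stood far above the control mean of 47.1 ± 15.2 CPM, and the TTX libraries lay below the 1 h Bic mean of 1355 ± 203 CPM, the level from which the intervention started. Arc, a regulator of AMPA receptor trafficking, was 2.90-fold higher with TBOA, at 722 ± 68.7 against 258 ± 61.3 CPM (adjusted p = 1.04e-06 by edgeR).

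Fos and Egr1 differed less. Fos (chromosome 12, 85473890 to 85477273), the founding member of the AP-1 family, had 1025, 1017, 1053, 859 and 782 CPM with TTX and 1557, 1569, 1382, 1595 and 1220 CPM with TBOA, 1.57-fold higher with TBOA (log2 fold change 0.65, standard error 0.07, adjusted p = 2.62e-05 by edgeR). The TTX libraries thus kept most of the level reached after 1 h of Bic (1037 ± 94.7 CPM) and the TBOA libraries stood near the 2 h level (1539 ± 243). Egr1, a zinc finger transcription factor, differed by 0.70 (standard error 0.10, adjusted p = 0.000329 by edgeR), and Atf3, a stress-inducible factor of the ATF family, one of 0.34 (standard error 0.07, adjusted p = 0.0040 by edgeR). The Atf3 call was lost when all 45 libraries entered the fit (adjusted p = 0.28 by edgeR).

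**Figure D2:**
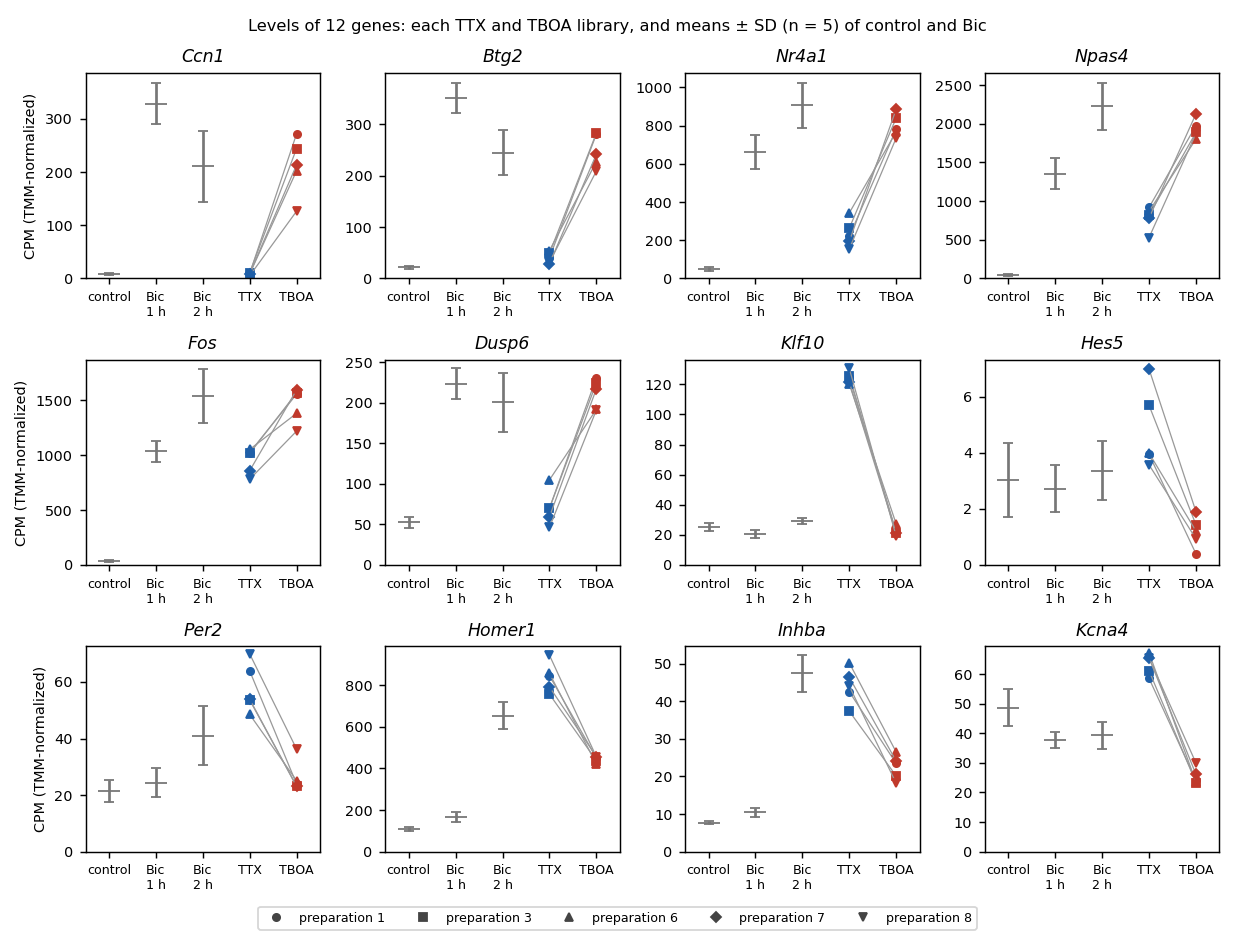
Levels of 12 genes in CPM (linear axes from 0): grey bars are means ± SD (n = 5) of control, 1 h Bic and 2 h Bic, and each marker is 1 library with TTX (blue) or TBOA (red), joined by preparation. For Ccn1 to Dusp6 all TBOA libraries lie above all TTX libraries and near the 2 h Bic mean, and for Klf10 to Kcna4 all lie below them.

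Of 26 immediate early transcription factors, 16 were higher (61.5%, against 3.5% of all genes tested) and 2 lower (7.69%, against 8.74%), with a median log2 fold change of 0.44 beside 0.02 over all genes tested. All TBOA libraries lay above all TTX libraries for 12 members (1.93% of all genes tested). Without the block 14 were higher and 1 lower. Nr4a1, Npas4, Fos and Egr1 in this list are genes that the study discusses from these samples, so its direction is not independent evidence. Within families the members went apart. Nr4a1 was higher, while the values were −0.14 for Nr4a2 and 0.07 for Nr4a3, neither of them called. Fos, Fosb, Jun and Junb were higher, with Junb at 0.69 and Fosb at 0.34, and Fosl1 and Fosl2 were not called, at −0.13 and −0.02. Egr1, Egr2 and Egr4 were higher, and Egr3 was lower, at −0.22 (adjusted p = 0.048 by edgeR), a call that was not made without the block (adjusted p = 0.15 by edgeR). Klf4 was among the highest ratios of all genes and Klf10 was the lowest named ratio. Nr4a2, Nr4a3, Fosl1 and Fosl2 and the uncalled paralogs in the next paragraph were singled out after their values were seen.

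Early signaling genes beyond transcription factors gave 12 higher and 4 lower of 29 (41.4% and 13.8%, against 3.5% and 8.74% of all genes tested). Without the block 11 were higher and 3 lower. Trib1 and Btg2 in this list are also discussed by the study from these samples, so the same limit holds. Gadd45g, a stress-responsive growth regulator, was 3.07-fold higher (322 ± 24.1 against 107 ± 12.9 CPM, adjusted p = 1.13e-07 by edgeR), while its relatives Gadd45a and Gadd45b had −0.26 and −0.02 and were not called. Ccn2, the paralog of Ccn1, had −0.03 and was not called. The antiproliferative genes Btg1, Tob1 and Tob2 were higher, at 0.58, 1.13 and 0.86 on the log2 scale. Ier5l, an early response gene, was the lowest of the list at −1.29 (adjusted p = 7.40e-06 by edgeR), and Trib3, a pseudokinase of the stress response, was lower at −0.61, a call lost without the block (adjusted p = 0.13 by edgeR). Of 18 MAP kinase feedback inhibitors, 6 were higher and 6 lower (33.3% each, against 3.5% and 8.74% of all genes tested). Dusp1 and Dusp6, phosphatases that switch MAP kinases off, were 4.44-fold and 3.16-fold higher, with 160 ± 15.2 against 37.6 ± 9.72 CPM and 211 ± 18.5 against 70.0 ± 21.7 CPM (adjusted p = 1.15e-07 and 2.36e-06 by edgeR). Dusp4, Dusp5, Spry1 and Spry2 were also higher, by 0.22 to 0.86, and Dusp7, Dusp10, Dusp16, Spry4, Spred1 and Spred2 were lower, by −0.27 to −0.53. Without the block, 5 were higher and 4 lower, with Dusp5 and Spry4 among the calls lost (adjusted p = 0.077 and 0.087 by edgeR).

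Promoter sequences of 5 of these genes and of Homer1, a gene lower with TBOA, show one feature that the comparison did not use. The cyclic AMP response element (CRE, TGACGTCA) and its core (TGACG) are sites for CREB family factors, and were searched on both strands in the 250 bases before the RefSeq start sites (GRCm38.p6). A full CRE holds 2 overlapping cores, 1 per strand. Of the 18 genes higher by more than 1 that have a promoter in the table, 11 (61.1%) held a core. The share was 29.8% of the 11646 tested genes with a promoter and 30% of 50 genes lower by more than 1. It was 19.8% of all 27025 genes with a promoter and, counted by window and not by gene, 17.8% of all 32851 windows. The 5 early genes and Homer1 were chosen by hand and all hold a core, so they do not show how common it is. Of the other early genes above, Klf4 and Npas4 held a core, while none was recorded for Trib1, Dusp6, Gadd45g or Arc. Some of the latter may have no promoter window. Stretches with cores are given for these 6 genes, each 5′ to 3′ on the gene's strand, with the cores in capitals.
Ccn1, chr3:145650019-145650063, minus strand: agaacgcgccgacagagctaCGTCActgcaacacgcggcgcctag
Btg2, chr1:134079294-134079341, minus strand: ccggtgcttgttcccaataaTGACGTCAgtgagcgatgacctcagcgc
Dusp1, chr17:26508588-26508683, minus strand: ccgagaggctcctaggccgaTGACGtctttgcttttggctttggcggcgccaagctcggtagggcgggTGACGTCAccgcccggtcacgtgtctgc
Nr4a1, chr15:101266596-101266830, plus strand: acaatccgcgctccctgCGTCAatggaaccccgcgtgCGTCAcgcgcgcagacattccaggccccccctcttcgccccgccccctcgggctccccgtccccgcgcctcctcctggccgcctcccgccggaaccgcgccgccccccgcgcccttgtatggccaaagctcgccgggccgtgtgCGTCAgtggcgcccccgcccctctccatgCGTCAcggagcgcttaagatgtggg
Fos, chr12:85473741-85473848, plus strand: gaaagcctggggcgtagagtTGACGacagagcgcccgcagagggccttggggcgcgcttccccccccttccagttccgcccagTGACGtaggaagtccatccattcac
Homer1, chr13:93303681-93303756, plus strand: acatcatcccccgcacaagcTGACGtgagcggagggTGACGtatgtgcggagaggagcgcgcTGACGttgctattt

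Homer1 holds 3 cores within 56 bases of its start and was nonetheless lower with TBOA, so the core alone did not sort the genes by direction. Over all called genes the shares with a core were close to the 29.8% of tested genes, at 29.1% of 413 higher and 33.1% of 1054 lower genes with a promoter. The CArG box, the site for SRF, was found in 1.45% of the higher and 2.75% of the lower genes, against 1.43% of those tested. The AP-1 site (TGAGTCA) was found in 5.57% and 3.13%, against 3.93%, and the NR4A site (AAAGGTCA) in 0.73% and 0.47%, against 1.11%. These are matches of letters in a short window and no test was made on them.

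On the lower side, Klf10 (chromosome 15, 38291463 to 38300706), a Krüppel-like factor known as a target of TGF-β signaling, had 125, 126, 120, 121 and 131 CPM with TTX and 22.04, 21.3, 27.3, 21.04 and 19.1 CPM with TBOA. The arms lay far apart and varied little within themselves, with a 5.63-fold difference (log2 fold change −2.49, standard error 0.08, adjusted p = 6.49e-10 by edgeR). The TBOA level was near those of the control (25.1 ± 2.48 CPM), 1 h Bic (20.7 ± 2.59) and 2 h Bic (29.4 ± 2.04), so the TTX libraries were the ones that stood apart. Among the 12 genes with the largest falls, the TTX mean was above the control, 1 h Bic and 2 h Bic means in 11. The TBOA mean was above the control mean in 0 of the 12 and above the 2 h Bic mean in 0, so TBOA was also under those levels. Over all 1389 lower genes the TTX mean was above all 3 means in 75.6%, against 28.4% of all genes tested. The TTX and TBOA libraries enter both the call and these counts, which favors these orders.

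Hes5 (chromosome 4, 154960923 to 154962371), a target of Notch signaling that represses neuronal differentiation, had 3.95, 5.70, 3.99, 6.99 and 3.57 CPM with TTX and 0.40, 1.44, 1.21, 1.91 and 0.94 CPM with TBOA. Levels were low but the arms did not overlap (log2 fold change −2.16, standard error 0.19, adjusted p = 1.09e-05 by edgeR). The promoter of Hes5 holds a CArG match. Socs1, an inhibitor of cytokine signaling, was 4.10-fold lower, at 0.85 ± 0.25 against 3.29 ± 0.65 CPM (adjusted p = 9.35e-06 by edgeR), and Pard6b, a cell polarity protein, 3.80-fold lower, at 2.202 ± 0.33 against 8.49 ± 0.59 CPM (adjusted p = 2.87e-07 by edgeR). Dyrk3, a protein kinase, and the cyclins Ccnj and Ccnf were lower by 1.71, 1.65 and 1.51 on the log2 scale. Cbx2, a Polycomb protein, was lower by 1.54.

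Notch pathway genes, a list added after the values were seen, gave 8 lower and 5 higher of 26 (30.8% and 19.2%, against 8.74% and 3.5% of all genes tested). The target genes Hes5, Hey2, Hey1 and Hes1 were lower, at −2.16, −1.47, −0.38 and −0.37, as were the ligand Dll1 (−0.78) and the DNA-binding partner Rbpj (−0.34). The receptors Notch1, Notch2 and Notch3 and the ligand Jag1 were higher, by 0.35 to 0.43, but without the block 0 of the 26 were higher and 7 lower. Notch receptors are expressed by astrocytes, and the summed astrocyte markers had a median of 1521 CPM with TBOA and 1386 with TTX. The part of this shift in the receptor values was not tested.

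Effector genes of synaptic plasticity were mostly lower, with 15 of 25 (60%, against 8.74% of all genes tested) lower and 3 (12%, against 3.5%) higher, and a median log2 fold change of −0.30. All TBOA libraries lay below all TTX libraries for 11 members (6.64% of all genes tested). Arc, Homer1 and Bdnf in this list are genes that the study discusses from these samples, so its direction is not independent evidence. Homer1 (chromosome 13, 93299635 to 93405129), a postsynaptic scaffold whose short activity-induced form competes with the long ones, had 846, 757, 857, 792 and 945 CPM with TTX and 451, 438, 421, 457 and 456 CPM with TBOA. TBOA libraries were tightly grouped and 1.86-fold below (log2 fold change −0.89, standard error 0.06, adjusted p = 5.79e-07 by edgeR). The 2 h Bic mean of 655 ± 64.4 CPM lay between the arms, and both were above the 1 h Bic level of 167 ± 24.96 CPM. Cpeb3, a regulator of mRNA translation at synapses, was 1.83-fold lower, at 111 ± 11.9 against 206 ± 14.3 CPM (adjusted p = 1.03e-06 by edgeR). The pentraxins Nptx1 and Nptx2, which cluster AMPA receptors, were lower at −0.63 and −0.35. Against this direction, Arc, the kinase gene Plk2 and the adhesion gene Lrrtm1 were higher, at 1.54, 0.42 and 0.30.

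Secreted factors and the activin system held further lower genes. Inhba (chromosome 13, 16011851 to 16031621), which encodes the activin A subunit, had 42.5, 37.4, 50.2, 46.4 and 44.1 CPM with TTX and 23.5, 20.1, 26.5, 24.1 and 18.2 CPM with TBOA, 1.95-fold lower (log2 fold change −0.96, standard error 0.06, adjusted p = 1.04e-06 by edgeR). The lowest TTX library exceeded the highest TBOA library, and the 2 h Bic mean of 47.5 ± 4.88 CPM was on the side of TTX. Inhbb, the activin B subunit, and Smad3 and Acvr1, a transducer and a receptor of this family, were lower at −0.69, −0.38 and −0.30. Inha and Bambi, an inhibin subunit and a decoy receptor, were higher at 0.32 and 0.62, which made 4 lower and 2 higher of 15 (26.7% and 13.3%, against 8.74% and 3.5%). Without preparation 8, 4 were lower and 1 higher, and Inha was not called (adjusted p = 0.052 by edgeR). Bdnf, the neurotrophin, had 293, 290, 348, 320 and 357 CPM with TTX and 235, 225, 265, 252 and 267 CPM with TBOA. These arms did not overlap, although the difference was only 1.27-fold (log2 fold change −0.35, standard error 0.04, adjusted p = 0.000204 by edgeR). Bdnf is 1 of 5 lower and 2 higher among 26 secreted factors and neuropeptides (19.2% and 7.69%, against 8.74% and 3.5%). The higher ones were Gdf15 and Penk, and without the block, where 3 were lower and 1 higher, Penk was not called (adjusted p = 0.17 by edgeR).

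CREB-linked and clock genes were examined next. Per2 (chromosome 1, 91415982 to 91459324), a circadian repressor with CREB-dependent induction, had 63.9, 53.6, 48.5, 53.9 and 69.9 CPM with TTX and 23.9, 23.2, 25.1, 23.04 and 36.3 CPM with TBOA. Preparation 8 was highest in both arms, and the arms did not overlap (log2 fold change −1.14, standard error 0.07, adjusted p = 8.63e-07 by edgeR). Of 19 CREB coactivators, cAMP-response genes and feedback genes, 6 were lower and 3 higher (31.6% and 15.8%, against 8.74% and 3.5% of all genes tested). Sik2, a kinase that holds CREB coactivators in the cytoplasm, was lower at −0.63, and its relative Sik1 was higher at 0.48. Atf1 and Ep300, a CREB family factor and a histone acetyltransferase, were lower at −0.73 and −0.53. Of 18 core clock genes, a list added after the values were seen, 5 were lower (27.8%, against 8.74%) and 0 higher by edgeR (3 and 0 without the block), with Nr1d1, Cry1, Bhlhe40 and Cry2 at −0.50 to −0.22.

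Potassium channels held large differences in both directions, with 8 lower and 3 higher of 44 (18.2% and 6.82%, against 8.74% and 3.5%), and 5 and 1 without the block. Kcna4 (chromosome 2, 107290639 to 107298502), an A-type channel subunit, had 58.5, 61.1, 67.2, 65.5 and 65.5 CPM with TTX and 24.1, 23.3, 23.5, 26.1 and 30.0 CPM with TBOA, 2.46-fold lower (adjusted p = 4.18e-08 by edgeR). All TBOA libraries were also below the control mean of 48.7 ± 6.33 CPM. Kcna1, a delayed rectifier subunit of axons, was 1.52-fold lower, at 103 against 158 CPM (adjusted p = 2.04e-05 by edgeR). Kcnj2, an inward rectifier, was 3.63-fold higher, at 24.1 ± 5.60 against 6.92 ± 1.66 CPM (adjusted p = 5.42e-07 by edgeR), and its control level of 10.3 ± 2.13 CPM was above that with TTX.

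Genes were also grouped by their response to Bic, measured in the control and Bic libraries, which do not enter the comparison. Bic raised 443 of 15184 genes after 1 h (2.92%) and 2195 of 15269 after 2 h (14.4%), and lowered 2284 after 2 h (15%), by the same paired edgeR test. Of the 443 genes raised by 1 h of Bic, 34.5% were higher and 11.5% lower with TBOA than with TTX, against 3.5% and 8.74% of all genes tested. The median log2 fold change was 0.13, and the medians in single preparations ran from 0.07 to 0.20. Of 1780 genes raised by 2 h but not 1 h of Bic, 3.99% were higher and 19.7% lower. Of 2279 genes lowered by 2 h of Bic, 2.81% were higher and 19.2% lower, with a median of 0.08 in preparation 1 and of −0.04 to −0.19 in the others. Of 10631 genes called in neither, 2.42% were higher and 4.89% lower. Without the block, 103, 17, 29 and 81 genes were higher and 32, 263, 350 and 340 lower in these 4 classes.

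**Figure D3:**
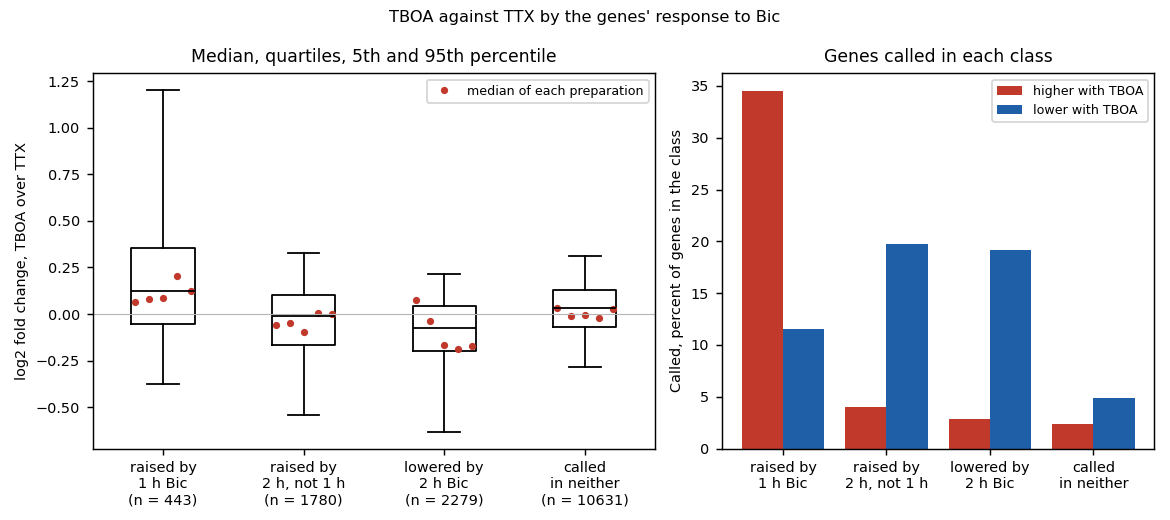
Left: log2 fold changes of TBOA over TTX in 4 classes set by the response to Bic, as medians, quartiles and 5th and 95th percentiles, with the median of each preparation in red. Right: percent of each class called higher (red) or lower (blue), with 34.5% higher among genes raised by 1 h Bic and 19.7% and 19.2% lower among those raised late and those lowered.

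The 2 h Bic means show where both arms stood. Called higher genes had a TTX mean under the 2 h Bic mean in all but 14 of 556 (2.52%), and their TBOA means were above the 2 h Bic mean in 68.7%. Called lower genes had a TTX mean above the 2 h Bic mean in 96.7% and a TBOA mean above it in 19.9%. Over all genes tested these shares were 50.7% for TTX and 48.7% for TBOA. The genes were called on the same TTX and TBOA libraries, which favors these orders, so the shares are a description only.

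Of the 438 genes lowered by 2 h of Bic that were also lower with TBOA than with TTX, 108 had a Zfp symbol, given to zinc finger genes. Their share among all 2279 genes lowered by Bic was not counted. Of 360 tested genes with a Zfp symbol followed by a number, a list added after the values were seen, 138 were lower (38.3%, against 8.74% of all) and 16 higher (4.44%), with a median log2 fold change of −0.19. Without the block 122 were lower and 10 higher, and without preparation 8, 100 and 6. All TBOA libraries lay below all TTX libraries for 123 of the 360 (6.64% of all genes tested). Most encode DNA-binding C2H2 proteins, many of them transcriptional repressors. Zfp189 had 12.2, 15.8, 15.4, 15.5 and 14.2 CPM with TTX and 4.59, 4.92, 5.02, 4.93 and 4.51 CPM with TBOA, 3.00-fold lower (log2 fold change −1.58, standard error 0.07, adjusted p = 6.02e-08 by edgeR). All TBOA values lay within a narrow band under the 2 h Bic mean of 6.68 ± 0.62 CPM. Zfp667 and Zfp748 were lower by 1.38 and 1.42 on the log2 scale. Of the 138 lower Zfp genes, 108 had been lowered by 2 h of Bic and 9 raised. A low level after Bic was common to the family. The 2 h Bic mean was above the control mean in 18.3% of all 360 and in 12.3% of the 138, against 52.7% of all genes tested.

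A few higher genes with such symbols were of another kind. Zfp36, Zfp36l1 and Zfp36l2, singled out after their values were seen, are CCCH proteins that bind AU-rich elements and promote mRNA decay, and were higher at 0.89, 0.68 and 0.90 (adjusted p = 0.0070, 0.0029 and 1.29e-05 by edgeR). Zfp genes are a family with similar copies, and the authors counted only reads that mapped to 1 place.

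**Figure D4:**
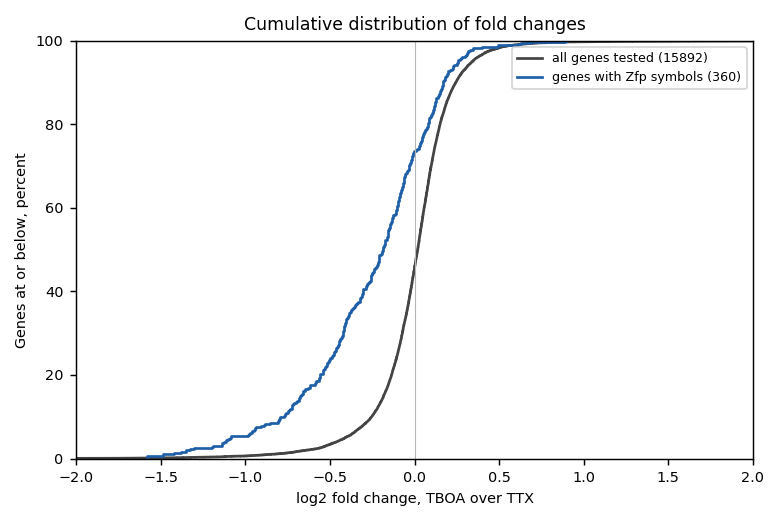
Cumulative share of genes (percent) at or below each log2 fold change of TBOA over TTX, for all 15892 genes tested (grey) and the 360 Zfp genes (blue). The blue curve lies to the left of the grey one over most of its range, with medians of −0.19 and 0.02.

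NMDA receptor, AMPA and kainate receptor and sodium channel genes were called at 0%, 5.56% and 0%, against 12.2% of all genes tested. The other lists of this paragraph, glutamate transporters among them, were near or above that share, at 11.1% to 25%. Several of the genes not called depended on the fit. Of 7 NMDA receptor subunits, 0 were called by edgeR or by DESeq2 with the block, and 2 had an unadjusted p under 0.05. Grin1, the obligatory subunit, had 522 ± 50.8 CPM with TBOA and 552 ± 44.8 with TTX, and Grin2b, a subunit common outside synapses, 656 ± 118 and 751 ± 79.7. Grin2a, a synaptic subunit, had −0.31 (standard error 0.10, adjusted p = 0.064 by edgeR) and was called without preparation 1, with all 45 libraries, and over all genes with a read with and without the block (adjusted p = 0.017, 0.023, 3.73e-06 and 0.024 by edgeR). Over all genes with a read and with the block, Grin2b was also called (adjusted p = 0.0032 by edgeR). Of 11 tested sodium channel genes, 0 were called by edgeR or by DESeq2 with the block and 3 had an unadjusted p under 0.05, and the pore-forming subunits Scn2a and Scn8a had −0.18 and −0.02. Scn2a was called without preparation 1 (adjusted p = 0.026 by edgeR), and Scn2a and Scn1a over all genes with a read with the block (adjusted p = 0.0064 and 0.046 by edgeR). Of 18 glutamate transporters and enzymes, 2 were lower. The neuronal transporter Slc1a1 had 155 ± 7.79 against 179 ± 4.10 CPM (−0.19, standard error 0.05, adjusted p = 0.018 by edgeR). This call was lost without preparation 3, 7 or 8 (adjusted p = 0.052, 0.068 and 0.083 by edgeR). The vesicular transporter Slc17a6 had −0.21, a call lost without the block (adjusted p = 0.13 by edgeR). Without preparation 8, 0 of the 18 were called. The glial transporters Slc1a2 and Slc1a3 had −0.06 and 0.33 (adjusted p = 0.49 and 0.080 by edgeR), and Slc1a3 was called higher with all 45 libraries and over all genes with a read with the block (adjusted p = 0.018 and 8.84e-07 by edgeR). AMPA and kainate receptors gave 1 lower gene of 18, Grik2, also not called without the block. Metabotropic glutamate receptors gave 1 lower of 7 and GABA genes 3 of 21 (1 without the block). Calcium channels and pumps gave 3 lower of 27 (2 without the block and 0 without preparation 8). Calcium and calmodulin kinases gave 1 higher and 2 lower of 16 (0 without the block). Class IIa HDACs and Mef2 factors gave 1 higher and 1 lower of 8 (0 and 1 without the block). Postsynaptic scaffolds gave 1 higher and 2 lower of 22 (0 and 1 without the block).

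Lists of stress genes and of death genes differed in their share of calls, beside 12.2% of all genes tested. Of 20 Bcl2 family and p53-linked genes 1 was lower, Mdm2 at −0.20, and not without the block, and of 7 mitochondrially encoded mRNAs 0 were called by edgeR or DESeq2, and 0 had an unadjusted p under 0.05. The integrated stress response had 3 higher and 4 lower of 16, 43.8% in all (1 and 1 without the block), with the factor Cebpb at 0.75, Trib3 at −0.61 and the central factors Atf4 and Ddit3 uncalled at 0.02 and 0.01. Chaperones gave 1 higher and 3 lower of 20 (20% in all, and 0 and 2 without the block), redox genes 1 lower of 20 (Gclc, which makes glutathione, at −0.39), glycolysis and glucose transport 3 lower of 22 (2 without the block), and cholesterol synthesis 2 higher and 2 lower of 21 (0 and 0 without the block).

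**Figure D5:**
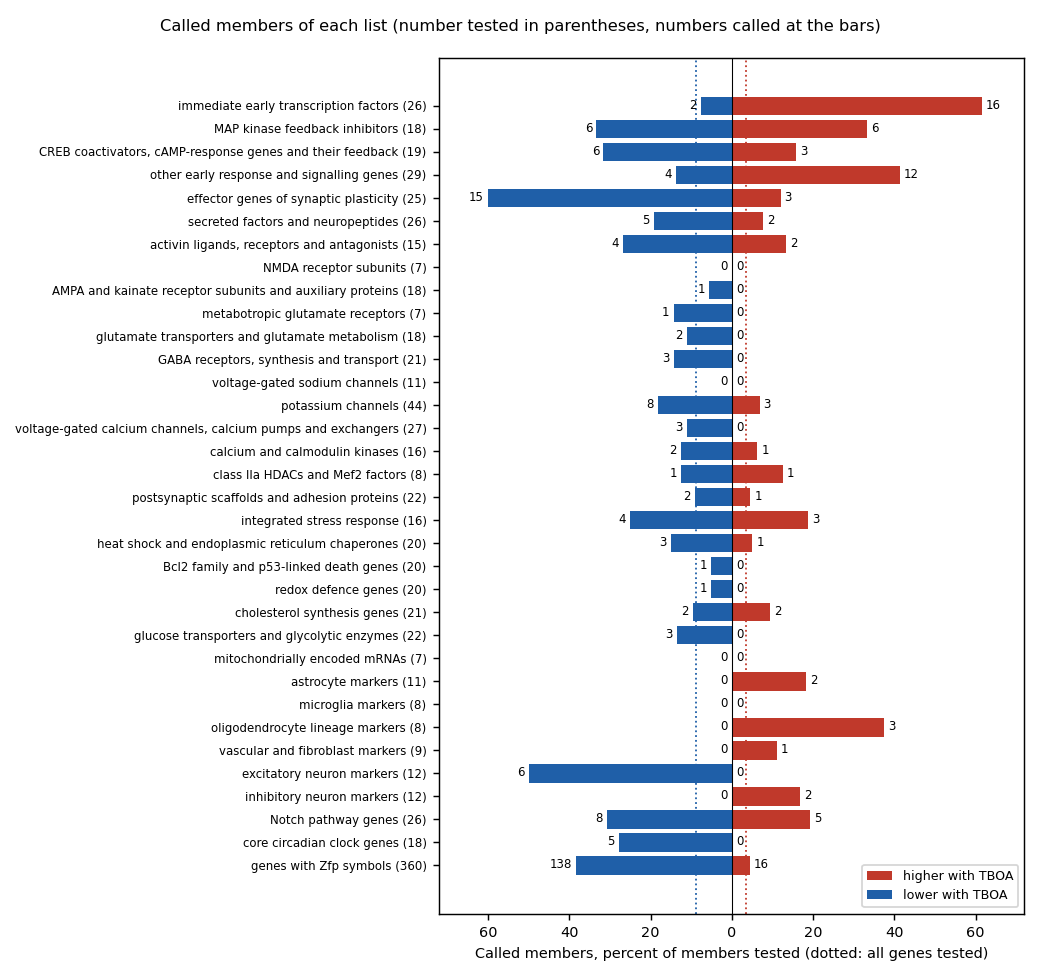
Percent of the tested members of each list called higher (red, to the right) or lower (blue, to the left), with the number called at each bar and the number tested in parentheses. Dotted lines mark all genes tested, 3.5% higher and 8.74% lower, and the longest bars are the immediate early transcription factors (16 of 26 higher) and the effector genes of synaptic plasticity (15 of 25 lower).

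Cell type markers moved in part with the arms. Of 11 tested astrocyte markers 2 were higher (18.2%, against 3.5% of all genes tested), and Sox9, a glial transcription factor, had 33.9, 33.5, 25.1, 25.9 and 19.8 CPM with TTX and 70.9, 79.1, 62.0, 67.2 and 37.9 CPM with TBOA, 2.30-fold higher (adjusted p = 2.87e-07 by edgeR). Sox9 was itself raised by 1 h of Bic, to 61.1 ± 15.7 from 15.4 ± 4.47 CPM, and the other markers but Slc4a4 (0.30, a call lost without the block, adjusted p = 0.13 by edgeR) were not called, with Gfap at 0.41 and Aqp4 at 0.24. Of 8 oligodendrocyte lineage markers 3 were higher (37.5%, and 1 without the block), with Olig2 at 0.72, and their summed level ranged from 150 to 224 CPM with TBOA and from 115 to 191 with TTX. Vascular and fibroblast markers summed to 137 to 352 and 131 to 302 CPM, and 0 of 8 microglia markers were called by edgeR or DESeq2 or had an unadjusted p under 0.05. Of 12 excitatory neuron markers 6 were lower (50%, against 8.74%, and 3 without the block), with Tbr1 at −0.30 and the vesicular transporter Slc17a7 uncalled at −0.06, and of 12 inhibitory markers Dlx5 and Dlx2 were higher at 0.70 and 0.38, the call for Dlx2 being lost without the block (adjusted p = 0.11 by edgeR). No marker was at 0 in all libraries of an arm. The part of these shifts in the lists above was not tested.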

How the data were processed

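Poly-A RNA of 45 libraries was sequenced single-end with a strand-marking kit. The submitters' processing notes name bcl2fastq 2.20.0.422, STAR 2.5.4b, featureCounts 1.6.5 and GRCm38. The authors counted uniquely mapped sense reads per gene of Ensembl release 94 and deposited raw counts for 54532 genes without normalization. Gene names and coordinates were taken from GENCODE M21 (same build), which held 54495 of the identifiers, and promoters from RefSeq, with windows for 11646 tested genes.

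The 10 LP TBOA and LP TTX libraries were fitted together with edgeR 4.0.16 in R 4.3.3 (filterByExpr, TMM, estimateDisp, glmQLFit and glmQLFTest) with preparation as a block, since the labels give each culture preparation a number shared by both arms. P-values were adjusted by Benjamini-Hochberg over 15892 genes, and standard errors are the log2 fold change over the root of F. The script was checked on simulated counts. Levels are CPM with 1 TMM scaling over all 45 libraries, as mean ± SD, and compare 1 gene between samples, not genes with each other. The replicates are separate preparations. With the block, the p-values rest on how the TBOA to TTX difference varied from preparation to preparation, with variances moderated across genes. Same-numbered libraries deviated together in 4 of 5 preparations. The depth per TBOA library varied 7.08-fold, so low genes are least precise in preparation 6.

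The comparison and the gene lists were chosen with earlier results of these data known. Genes were named by rule: the 12 largest called differences in each direction with a mean CPM of at least 1 and the same direction in 5 of 5 preparations (predicted gene models left out), up to 4 called members per list and direction, all drug-target genes at that level, and 11 genes discussed by the study. Lists are given as counts, with no set test, to be read against the 3.5% higher and 8.74% lower of all genes tested. A few named genes are not reported here. Alternatives were fits without the block, over all genes with a read, with a CPM filter, with RLE factors, with DESeq2 1.42.0 (the authors' tool) with and without the block, on all 45 libraries, on thinned counts, without each replicate, and, added after seeing the data, a robust fit and a test against a log2 fold change of 0.2.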

Additional observations from a re-analysis of the deposited data

Results flagged for a closer look

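Among 292 groups of 5 libraries of the named genes, 9 held 1 library whose gap to the nearest other exceeded the 95% critical value of Dixon's test, fewer than the 1 in 20 that chance gives. In the TTX arm, Ptp4a1 had 0.31 CPM in preparation 6 (0.81 to 0.91 in the others), Dusp7 35.3 CPM in preparation 8 (27.7 to 28.9) and Inhbb 28.8 CPM in preparation 1 (32.1 to 33.4). In the TBOA arm, Ptp4a1 had 2.84 CPM in preparation 3 (2.05 to 2.25), Scn2b 199 CPM in preparation 1 (133 to 144), Got1 209 CPM in preparation 8 (232 to 237), Camkk1 48.6 CPM in preparation 3 (54.0 to 56.2), Atp2b1 804 CPM in preparation 3 (715 to 725) and Per2 36.3 CPM in preparation 8 (23.04 to 25.1). Preparations 3 and 8 held 3 of these libraries each. The Per2 value of preparation 8 is still below every TTX library of that gene.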

How the results depend on the processing

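The number of higher genes (556) depended on the fit more than that of lower genes (1389). Without the replicate block it was 238, without the block over all genes with a read 246, by DESeq2 without the block 355, with all 45 libraries 905, and 131 higher and 579 lower genes passed a test against a log2 fold change of 0.2. Leaving out 1 replicate gave 194 to 715 higher and 804 to 1523 lower genes, and the lowest counts came without preparations 8 and 7. None of the 1945 called genes was called in the opposite direction under any alternative. Among named genes, 2051 of the gene-by-setting values kept their call, 293 lost it and 12 gained it. The sign turned only for uncalled genes near 0. Over all genes with a read Scn3b had −0.0098 without and −0.0074 with the block, and without single replicates −0.0296 to 0.0485. Got2 had 0.0019 with a CPM filter, 0.0191 on thinned counts and −0.0228 to 0.0376 without single replicates, and Slc1a5 had −0.018 on thinned counts. Without single replicates Scn8a had −0.0558 to 0.0737, Scn2b −0.0546 to 0.0517 and Got1 −0.0624 to 0.0029, the highest of the last 3 without replicate 6. The cause was not tested. Depth limits the low genes, and thinning all libraries to the shallowest left 428 higher and 1069 lower genes. Without the replicate block, the calls lost among named genes were mostly differences under 0.5 on the log2 scale. The pairing comes from the labels' preparation numbers.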
